A study of Rattus norvegicus with 18 samples.

Results

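The heat shock proteins and the DnaJ proteins are the chaperones that fold new proteins and hold or refold damaged ones. The members described here are 66 genes of the 38445 in the count files, taken by symbol: the Hspa, Hspb, Hsph, Hspd, Hspe and cytosolic Hsp90 genes and the Dnaja, Dnajb and Dnajc genes, leaving out 4 endoplasmic reticulum members (Hspa5, Dnajb9, Dnajb11 and Dnajc3). The choice was made with earlier results of these data known. By role they are 10 HSP70 genes, 3 HSP110 genes, 2 HSP90 genes, 2 mitochondrial chaperonin genes, 7 small heat shock genes, 4 DNAJA genes, 11 DNAJB genes and 27 DNAJC genes. RNA was sequenced from ventral tegmental area (VTA) tissue, a part of the midbrain where dopamine neurons of the reward system have their cell bodies. There were 18 adult male wild-type Sprague-Dawley rats in 3 groups of 6, and all had a Lieber-DeCarli liquid diet for 15 or 16 days. The withdrawal rats (numbered 13 to 18) had 9% v/v ethanol in the diet and were taken 24 h after it ended. The chronic ethanol rats (7 to 12) had the same diet and were taken at 0 h of withdrawal. The control rats (1 to 6) had the diet without ethanol. Each library came from the dissected tissue of a single rat, so the values are of all its cells together.

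HSP70 proteins bind exposed hydrophobic stretches of a client protein and release them in a cycle driven by ATP. DnaJ proteins (also called HSP40) bring clients to HSP70 and start the hydrolysis of ATP, and HSP110 proteins open the cycle again by exchanging the nucleotide. HSP90 takes over partly folded clients such as kinases and steroid receptors, and small heat shock proteins hold clients without ATP. Many of these genes are induced by heat shock factor 1 (HSF1) when proteins unfold. In neurons, Hspa8 and the DNAJC proteins Dnajc5 and Dnajc6 also serve the synaptic vesicle cycle.

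Libraries held 29566318 to 45079983 counts, and 3 counts, the limit that a count of 0 allows, stood for 0.0665 to 0.102 CPM (counts scaled for library depth with TMM factors), which covers counting error only. Dopamine neuron markers (7 genes) were detected in every library, but their summed level spanned 152 to 2257 CPM in withdrawal rats, 289.5 to 2761 CPM in chronic ethanol rats and 849 to 2688 CPM in control rats. Some libraries stood apart before any comparison. Withdrawal rat 13 had 15872 CPM of 4 pineal genes, against 2.59 to 9.85 CPM in the other 17 rats, and the lowest sum of 5 oligodendrocyte genes, 16213 CPM. Ethanol rat 8 and control rat 5 had 449 and 551 CPM of 4 markers of other regions, and withdrawal rat 13 had 810.2 CPM of them, all from Slc17a7 with the other 3 at 0. In the other 15 rats this sum was 15.2 to 24.2 CPM in withdrawal rats, 2.40 to 24.0 CPM in chronic ethanol rats and 2.67 to 15.2 CPM in control rats. Withdrawal rat 17 had the lowest dopamine neuron sum, 152 CPM, and ethanol rat 8 the next, 289.5 CPM. In rat 17 Slc6a3 was at 2.56 CPM, Pitx3 at 0.138 CPM and Th at 17.6 CPM, each the lowest of all rats. Slc18a2 and Ddc gave 70.6 and 42.4 CPM of the sum in rat 17. Differences with an unadjusted p under 0.05 that moved by over 1.5 times when 1 rat was left out are given with and without that rat.

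The 66 genes together made up 0.800 to 0.875% of library counts in withdrawal rats (median 0.818%), 0.785 to 0.852% in chronic ethanol rats (median 0.814%) and 0.843 to 0.901% in control rats (median 0.857%). Hspa8 and Hsp90ab1 alone made up 35.4 to 38.4% of the members' counts. Of the 66 members, 18 had a mean of at least 100 CPM over the 18 rats, 37 had 1 to 100 CPM and 11 had less than 1 CPM. Dnajb7 and Dnajb8 had 0 counts in every rat. In all, 58 members passed the filter on low counts and were tested.

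Per length of exon, levels spanned the family unevenly within each role. Hspa8, the constitutive cytosolic HSP70 that also strips clathrin coats from vesicles, had a mean level of 693 CPM per kb of exon over the 18 rats. Hsp90ab1, the constitutive HSP90, had 688 CPM per kb. Next came Dnaja1, a main cytosolic DnaJ partner of HSP70, at 163 CPM per kb, Hspd1, the mitochondrial HSP60, at 141 CPM per kb, and Dnaja2 at 91.3 CPM per kb. The HSP110 genes Hspa4, Hsph1 and Hspa4l had 87.3, 83.5 and 36.8 CPM per kb, and the mitochondrial HSP70 gene Hspa9 had 75.1 CPM per kb. Of the DNAJC genes, Dnajc7, Dnajc8 and Dnajc5 led with 78.9, 72.2 and 68.1 CPM per kb. The small heat shock genes were lower, led by Hspb8 at 20.9 CPM per kb, Hspb6 at 16.6 CPM per kb and Hspb1 at 15.6 CPM per kb. The means of Hspb6 and Hspb1 were raised by withdrawal rat 13, at 60.9 and 85.8 CPM. All other rats had 16.0 to 27.1 CPM of Hspb6 and 3.38 to 23.3 CPM of Hspb1.

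**Figure D1:**
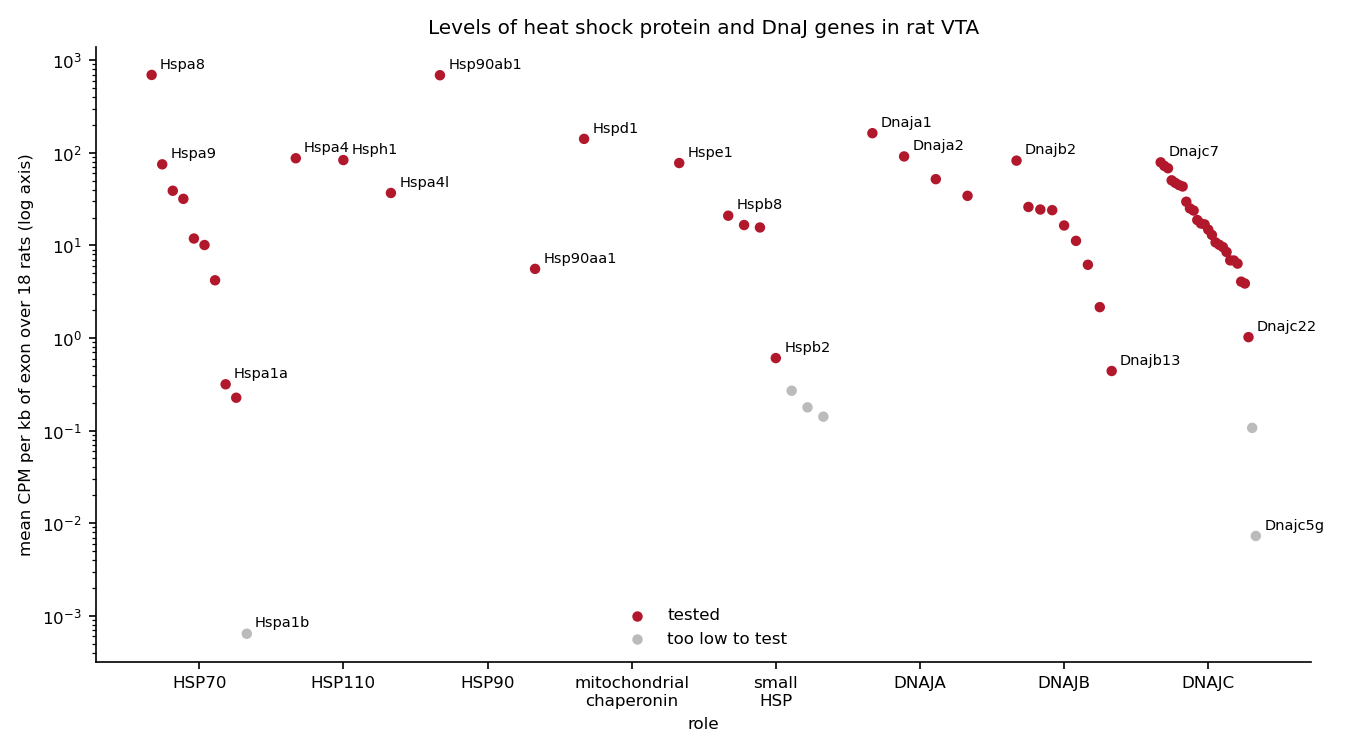
Mean level of 64 members in CPM per kb of exon over the 18 rats (vertical log axis), grouped by role and sorted within it; red points were tested and grey points were too low to test. Hspa8 and Hsp90ab1 lead with 693 and 688 CPM per kb, while Hspa1a is at 0.316 CPM per kb; Dnajb7 and Dnajb8, with 0 counts, are not drawn.

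Hspa1a and Hspa1b were near the bottom. Hspa1a, the classic heat-induced HSP70 gene, was at 0.288 to 1.55 CPM in withdrawal rats (median 0.409), 0.104 to 4.84 CPM in chronic ethanol rats (median 0.471) and 0.197 to 0.957 CPM in control rats (median 0.316). Its near-identical neighbour Hspa1b had a single count in all 18 libraries, in ethanol rat 8. The counting command set no option to keep read pairs that match several places, which leaves out pairs shared by the copies, so both levels are uncertain. The same holds for Hsp90aa1, the inducible HSP90, which was at 10.8 to 21.5 CPM over all rats and has 15 pseudogene loci of its own in the files, with a summed median of 5.57 CPM. Hspa8 has 31 such loci, with a summed median of 39.4 CPM, and Hsp90ab1 has 20, with 0.970 CPM.

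To show what the HSF1 recognition letters look like in these genes, promoter windows from 250 bases before to 50 after the annotated start were searched for GAANNTTC and TTCNNGAA, in which the unit GAA and its reverse complement face each other. Each motif reads the same on both strands, and matches can overlap by sharing a unit. RefSeq promoters (GRCr8) were at hand for 52 of the 66 members. Either motif stood in 9 of the 12 promoters of heat-inducible members (75.0%) and 7 of the 40 of other members (17.5%), against 4233 of 27457 promoters of all genes (15.4%). A run of 3 alternating units stood in 5 of the 12, in 0 of the 40 and in 0.736% of all. A match is a description of letters only, and the absence of one, as in the window of Hspa1a, says only that these letters are not there. Hspa8 was chosen for its level per kb, the highest of the members, and had no unadjusted p under 0.05 below. Dnaja1 and Hspa9 each had the lowest unadjusted p of the members in at least 1 comparison below. Hspe1 shares its run with Hspd1. The windows of these genes follow, 5′ to 3′ on the gene's strand, with matched motifs in capitals.
Hspa8 (chr8:50080264-50080563, plus strand): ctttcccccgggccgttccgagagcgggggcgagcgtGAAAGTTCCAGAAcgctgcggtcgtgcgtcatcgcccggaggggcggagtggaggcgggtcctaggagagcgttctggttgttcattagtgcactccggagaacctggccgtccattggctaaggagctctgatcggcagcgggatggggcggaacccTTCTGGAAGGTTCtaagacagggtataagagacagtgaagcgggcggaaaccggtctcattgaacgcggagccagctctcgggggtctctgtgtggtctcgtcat
Dnaja1 (chr5:60638154-60638453, plus strand): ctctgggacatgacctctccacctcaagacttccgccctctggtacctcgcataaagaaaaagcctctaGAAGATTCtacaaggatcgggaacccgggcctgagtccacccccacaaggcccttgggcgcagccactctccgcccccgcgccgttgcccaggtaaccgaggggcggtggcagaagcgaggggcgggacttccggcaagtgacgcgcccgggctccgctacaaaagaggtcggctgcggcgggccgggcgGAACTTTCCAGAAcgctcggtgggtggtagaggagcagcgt
Hspe1 (chr9:64084077-64084376, plus strand): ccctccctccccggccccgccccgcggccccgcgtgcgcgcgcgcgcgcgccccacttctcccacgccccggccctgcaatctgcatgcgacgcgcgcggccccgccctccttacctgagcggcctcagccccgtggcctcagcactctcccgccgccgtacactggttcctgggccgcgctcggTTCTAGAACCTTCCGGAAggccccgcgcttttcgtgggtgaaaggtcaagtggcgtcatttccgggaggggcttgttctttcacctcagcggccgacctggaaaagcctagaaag
Hspa9 (chr18:26828349-26828648, minus strand): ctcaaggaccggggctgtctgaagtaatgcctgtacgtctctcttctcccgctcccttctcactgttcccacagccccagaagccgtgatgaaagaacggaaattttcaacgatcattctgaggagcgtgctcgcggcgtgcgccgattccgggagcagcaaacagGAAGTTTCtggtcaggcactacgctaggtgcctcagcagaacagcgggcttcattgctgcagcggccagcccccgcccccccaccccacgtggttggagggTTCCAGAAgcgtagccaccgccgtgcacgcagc
In Hspa8, one run of 3 units begins 213 bases before the start and the other 55 bases before it. In Dnaja1 the 3-unit run begins 9 bases after the start. Hspe1 and Hspd1 are divergent neighbours on chromosome 9, and their windows overlap: the run that begins 65 bases before the start of Hspe1 is read on the opposite strand 242 bases before that of Hspd1. The window of Hspa9 holds 2 separate pairs and no run of 3 units.

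The first comparison set chronic ethanol against the control diet and asks which transcripts differ while ethanol is still present. With edgeR, 0 of the 58 members tested had an adjusted p under 0.05, as did 0.0% of all 17637 genes. DESeq2 and limma-voom also called 0 members, and they called 46 and 2 of all 17637 genes. At an unadjusted p under 0.05, 6 members (10.3%) were lower in chronic ethanol and 0 were higher, against 2.74% of all genes lower and 3.1% higher. The 6 were Hspa9, Hspa2, Dnaja1, Hspa4l, Dnajb4 and Hspd1. The count rested in part on single rats: it was 1 (1.69%, against 1.72% of all genes) without ethanol rat 7 and 2 (3.39%, against 2.3%) without ethanol rat 9, and 1 member was higher without ethanol rat 7 or without control rat 3. Markers of blood moved with the groups as well: the summed level of 4 red blood cell genes was 92.4 to 174 CPM in withdrawal rats, 52.3 to 234 CPM in chronic ethanol rats and 183 to 520.4 CPM in control rats, with all withdrawal rats and 5 of 6 ethanol rats below every control rat. Its part in the differences from control was not tested. Over all 58 members, 38 had a negative and 20 a positive log2 change, with a median of -0.05 on the log2 scale, and over all genes tested 9040 were negative and 8597 positive, with a median of -0.004. These shifts are small: the median size of a log2 change was 0.076 among members and 0.088 among all genes.

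Hspa9 (mortalin, the HSP70 that pulls proteins into mitochondria; chr18:27731072-27749235 in Rnor_6.0, minus strand) had the lowest p of the family in this comparison. Its level was 167, 178, 191, 193, 210.5 and 218 CPM in ethanol rats 7 to 12, against 217, 220.0, 216, 222, 221 and 217 CPM in control rats 1 to 6. Of the ethanol rats, 5 of 6 lay below all control rats, and the sixth lay among them. The log2 change was -0.18 ± 0.06 (SE; edgeR adjusted p = 0.776). In bulk tissue, fewer cells of a type and less RNA per cell cannot be told apart.

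Dnaja1 (chr5:57028467-57039378, plus strand) had 255 to 320.0 CPM in ethanol rats (median 287), against 302 to 340 CPM in control rats (median 313). Ethanol rat 12 lay inside the control range and the other 5 ethanol rats below it, with a log2 change of -0.15 ± 0.06 (edgeR adjusted p = 0.834). Its exons share 4.01% of their bases with Mir207 on the same strand. The HSP110 gene Hspa4l had 311 to 359 CPM in ethanol rats (median 337), against 344 to 485 CPM in control rats (median 373). Here also 5 of 6 ethanol rats lay below every control rat, while control rat 5 lay far above its group. The log2 change of Hspa4l was -0.20 ± 0.08 (edgeR adjusted p = 0.834), and it was -0.12 without control rat 5.

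Hspa2, an HSP70 gene best known from testis, had 17.7 to 29.2 CPM in ethanol rats (median 22.4), against 24.2 to 33.5 CPM in control rats (median 30.0). The groups overlapped: 4 of 6 ethanol rats lay below all control rats, with a log2 change of -0.33 ± 0.13 (edgeR adjusted p = 0.834). Dnajb4, a cytosolic DnaJ gene, had 76.2 to 87.5 CPM in ethanol rats (median 82.6), against 85.5 to 95.3 CPM in control rats (median 92.2). The groups overlapped here too, with 3 ethanol rats below all control rats and a log2 change of -0.15 ± 0.07 (edgeR adjusted p = 0.845). Hspd1 (chr9:61680529-61691202, minus strand), whose barrel folds proteins inside mitochondria, had 278 to 339 CPM in ethanol rats (median 322), against 309 to 368 CPM in control rats (median 353). Only 2 ethanol rats lay below all control rats, and the log2 change was -0.12 ± 0.06 (edgeR adjusted p = 0.848). Its lid, Hspe1, overlapped fully, with 41.3 to 46.0 CPM in ethanol rats and 39.9 to 49.1 CPM in control rats.

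Hspa8 itself had 1304 to 1482 CPM in ethanol rats (median 1380), against 1421 to 1628 CPM in control rats (median 1527), and 3 ethanol rats lay below all control rats. Its log2 change was -0.13 ± 0.07 (edgeR adjusted p = 0.889). Hsp90ab1 had 1509 to 1697 CPM in ethanol rats and 1581 to 1758 CPM in control rats, a log2 change of -0.05 ± 0.05. The heat-inducible members, a textbook list of HSF1 targets, numbered 13 among those tested, and 11 had a negative and 2 a positive log2 change, with a median of -0.08. The largest log2 change among them was that of Hspa1a, at 1.42 ± 0.75 (edgeR adjusted p = 0.884). Ethanol rat 11, at 4.84 CPM, stood beside 0.104 to 0.770 CPM in the other ethanol rats, and the log2 change was -0.02 without that rat. The same rat had 456 CPM of 7 immediate early genes, against 28.5 to 122 CPM in the other 17 rats, and the part of this in the level of Hspa1a was not tested. Within the first library index, where ethanol rats 7 and 8 stand against the 6 control rats, the log2 difference of Hspa1a was -0.76 against 0.56 over all rats.

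Library index and group overlap in part, so the same differences were taken within an index, as differences of mean log2 CPM. In the index that ethanol rats 7 and 8 share with the 6 control rats, the difference was -0.35 for Hspa9, -0.25 for Dnaja1, -0.25 for Hspd1, -0.25 for Dnajb4, -0.30 for Hspa4 and -0.19 for Hspa8. In each of these 6 of 28 named members tested, both ethanol rats lay below all 6 control rats (exact permutation p = 0.0357, two-sided, the smallest that 2 against 6 rats allow). Adjusted over the 56 tests of both indices, the p was 0.25. Hspa9, Dnaja1, Hspd1 and Dnajb4 were named for a low p in the comparison that holds these same rats. The split is thus no separate test of them, and the share of all genes so placed was not counted. For Hspa2 and Hspa4l the difference was -0.38 and -0.18, with exact permutation p = 0.107 and 0.321. Ethanol rat 8 is one of the libraries that stand apart. Without rats 5, 8, 13 and 17, 11 of 59 members were lower and 1 higher at an unadjusted p under 0.05 (18.6 and 1.69%), against 6.59 and 6.45% of all genes, and none had an adjusted p under 0.05, the lowest being 0.176.

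**Figure D2:**
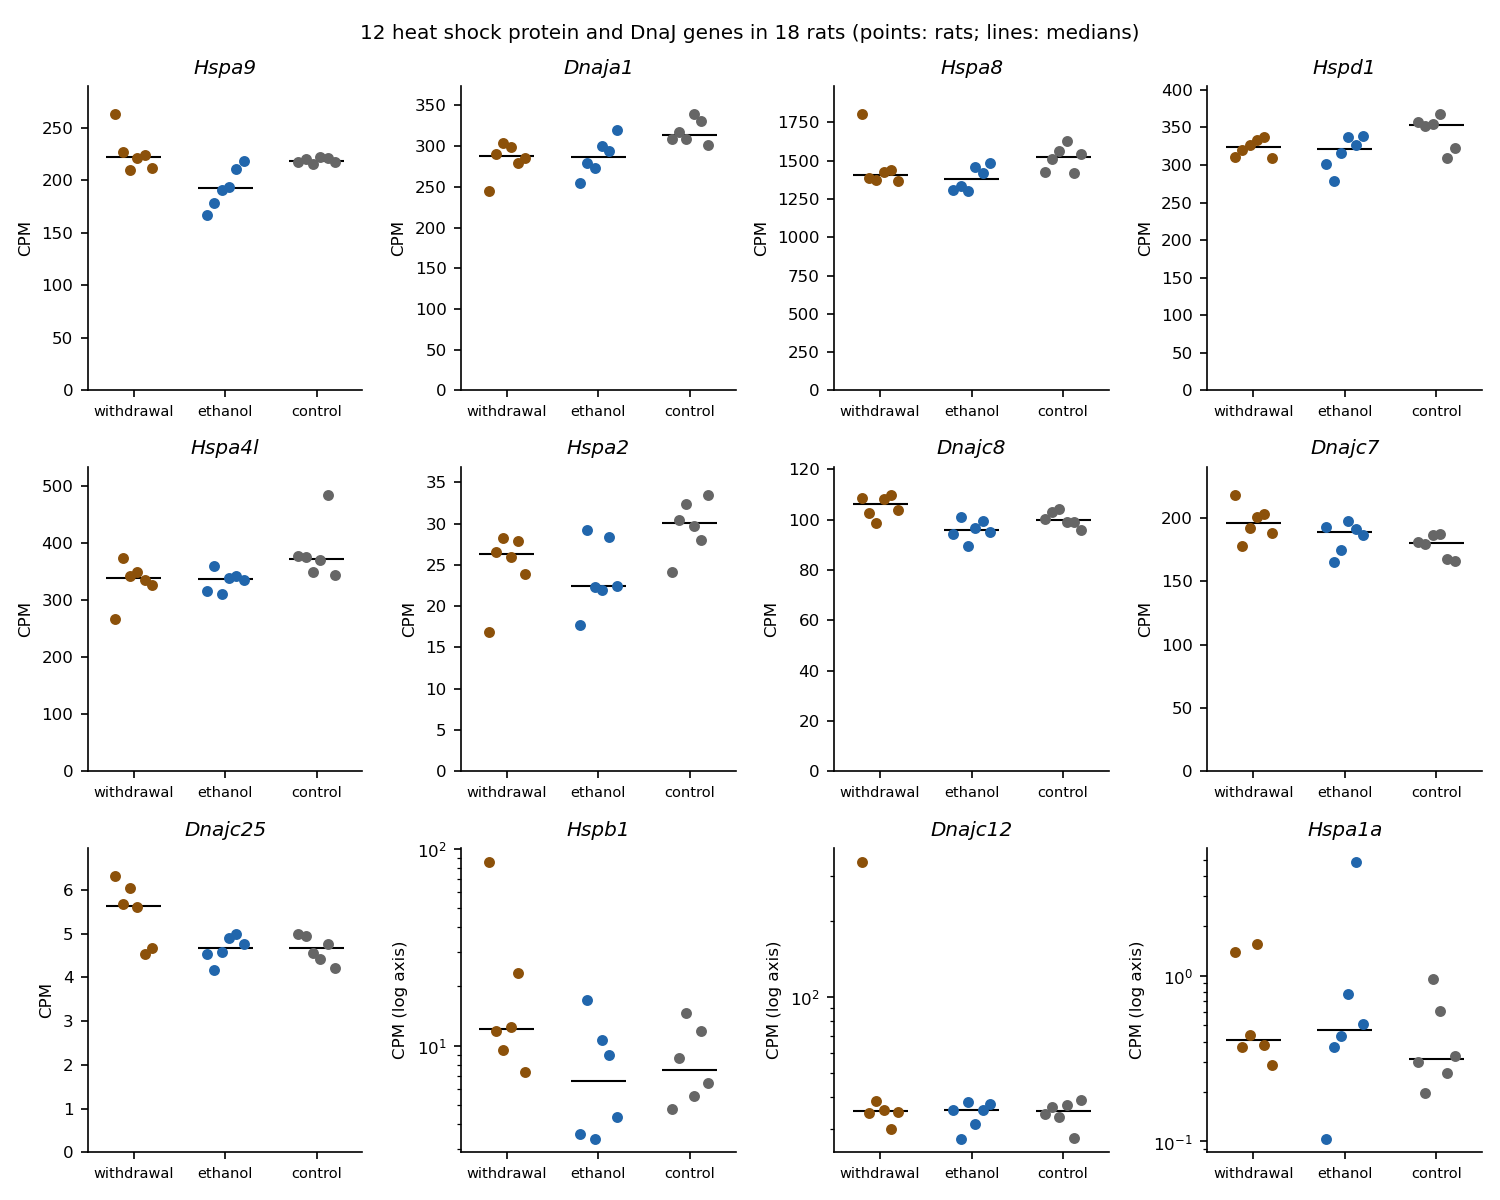
CPM of 12 members in each rat, in withdrawal, chronic ethanol and control rats from left to right; points are rats in order of number and lines are group medians, with log axes for Hspb1, Dnajc12 and Hspa1a. For Hspa9, 5 of 6 ethanol rats lie below all control rats, while withdrawal rats sit at 210.1 to 263 CPM; in Hspb1 and Dnajc12 the highest point is withdrawal rat 13.

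The second comparison set 24 h of withdrawal against the control diet and asks which transcripts differ once ethanol is gone. No library index holds both withdrawal and control rats. This comparison therefore cannot be made within an index, and differences by index and by group are mixed in it. Again 0 of 58 members passed the edgeR test (0.0% of all genes). DESeq2 and limma-voom called 0 members, and 47 and 0 of all 17637 genes. At an unadjusted p under 0.05, 5 members were higher and 5 lower (8.62% each), against 6.24% of all genes higher and 3.58% lower. The log2 change was positive in 31 and negative in 27 of the 58, with a median of 0.005, against 0.01 over all genes. The members with the largest log2 changes were Hspb1 and Dnajc12, and both rested on withdrawal rat 13.

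Dnaja1 had the lowest p, as it also lay lower in withdrawal, at 245 to 304 CPM (median 288), against 302 to 340 CPM in control rats (median 313). Of the withdrawal rats 5 of 6 lay below every control rat, and the log2 change was -0.16 ± 0.06 (edgeR adjusted p = 0.436). That change was -0.13 without rat 13, the lowest of all rats for Dnaja1. The comparison shares its control rats with the one above, so the 2 values of Dnaja1 are not independent. Hspa4l had 267 to 374 CPM in withdrawal rats (median 339), against 344 to 485 CPM in control rats, a log2 change of -0.21 ± 0.08 (edgeR adjusted p = 0.466) that was -0.13 without control rat 5. Hsp90ab1 had 1454 to 1633 CPM in withdrawal rats and 1581 to 1758 CPM in control rats, a log2 change of -0.10 ± 0.05 (edgeR adjusted p = 0.507). Hspa9 had 210.1 to 263 CPM in withdrawal rats and 216 to 222 CPM in control rats, a log2 change of 0.05 ± 0.06 that was -0.003 without rat 13.

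Of the DNAJC genes, Dnajc7, a DnaJ protein with repeats that bind both HSP70 and HSP90, had 178 to 218 CPM in withdrawal rats (median 196), against 166 to 187 CPM in control rats (median 180). All withdrawal rats but 1 lay above every control rat, and the log2 change was 0.14 ± 0.06 (edgeR adjusted p = 0.453) and 0.07 without rats 5, 8, 13 and 17. Dnajc25 had 4.54 to 6.32 CPM in withdrawal rats (median 5.64), against 4.22 to 4.99 CPM in control rats (median 4.66). Its 4 highest withdrawal rats, 13 to 16, lay above every control rat, with a log2 change of 0.24 ± 0.10 (edgeR adjusted p = 0.458) and 0.19 without rat 13. Dnajc28 had 8.21 to 9.75 CPM in withdrawal rats (median 9.21), against 8.54 to 11.9 CPM in control rats (median 10.9). The groups overlapped, with 1 withdrawal rat below every control rat and a log2 change of -0.23 ± 0.09 (edgeR adjusted p = 0.453). The other members under an unadjusted p of 0.05 were Dnajc17, with a log2 change of 0.23 that was 0.12 without rat 13, Dnajc6 (auxilin, which brings Hspa8 to clathrin coats) with -0.27 (-0.19 without rat 13), and Dnajc30, a mitochondrial DnaJ gene, with -0.17 (-0.15 without rat 13). In rat 13 Dnajc17 was at 16.1 CPM, above all other rats, and Dnajc6 and Dnajc30 were below all of them.

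Hspb1 (HSP27, a small heat shock protein that also steadies actin; chr12:23839390-23841051, minus strand) had 85.8, 11.9, 9.49, 12.4, 23.3 and 7.38 CPM in withdrawal rats 13 to 18, against 4.78, 8.63, 14.7, 5.56, 11.9 and 6.47 CPM in control rats 1 to 6. Rats 13 and 17 lay above every control rat and the other 4 inside the control range. The log2 change was 1.53 ± 0.58 (edgeR adjusted p = 0.436), and without rat 13 it was 0.57. Dnajc12 (chr20:26893139-26913041, plus strand), a co-chaperone of the aromatic amino acid hydroxylases, reached 342 CPM in rat 13. The other 5 withdrawal rats had 30.1 to 38.6 CPM, against 27.7 to 38.9 CPM in control rats. Its log2 change was 1.31 ± 0.52 (edgeR adjusted p = 0.453) and -0.00085 without rat 13. Tph1, a tryptophan hydroxylase and thus one of these enzymes, was at 14990.0 CPM in rat 13, and its part in the level of Dnajc12 was not tested. Without rat 13, 0 members were higher and 3 lower at an unadjusted p under 0.05 (5.17%), against 4.41 and 4.20% of all genes. Other single rats also moved these counts: 3 members were higher without control rat 6 or withdrawal rat 15, and 3 were lower without control rat 2 and 2 without control rat 5.

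**Figure D3:**
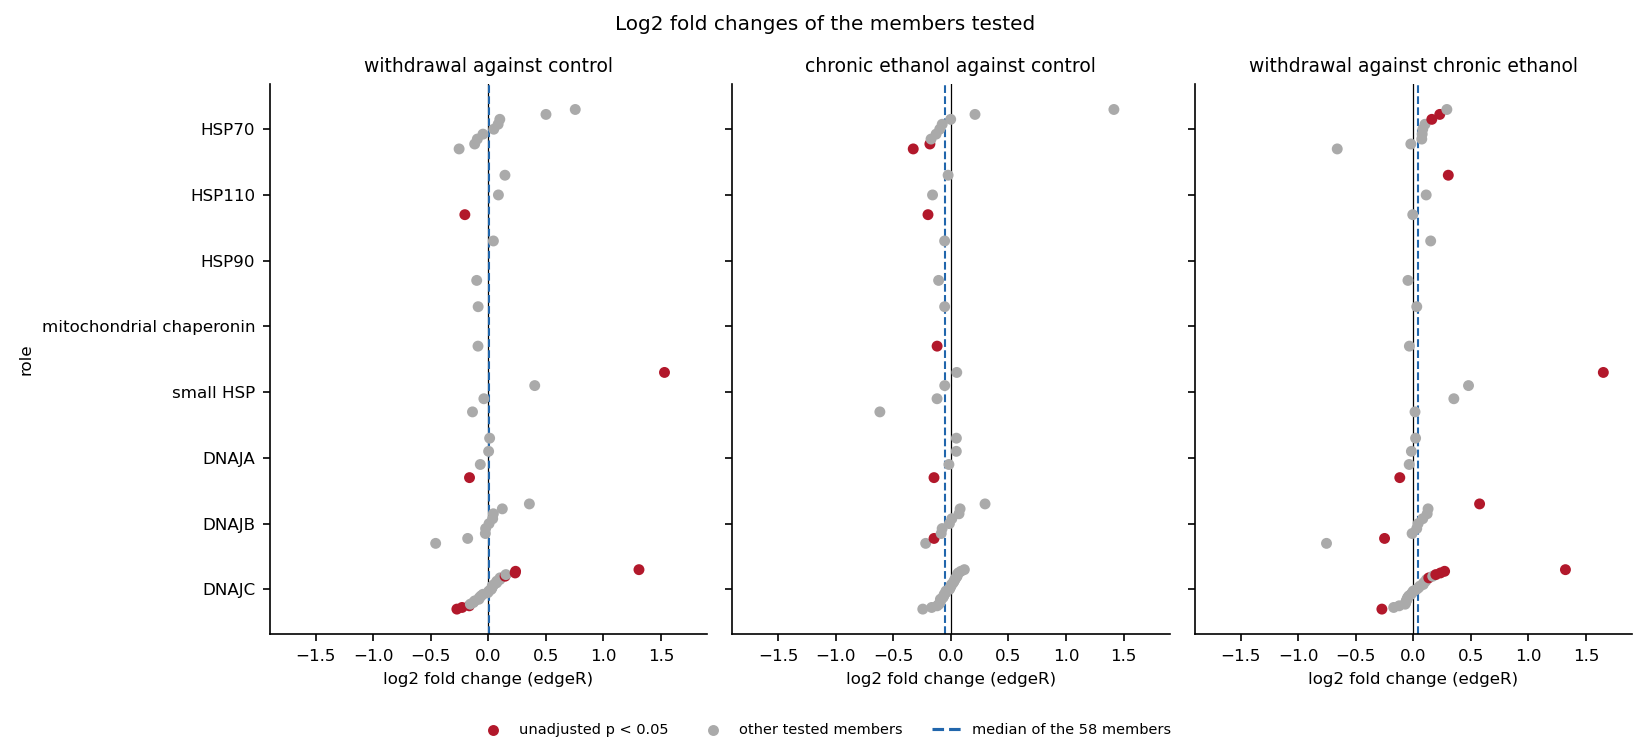
Log2 fold changes from edgeR of the 58 members tested, by role, for withdrawal against control, chronic ethanol against control and withdrawal against chronic ethanol; red points have an unadjusted p under 0.05, grey points do not, and the dashed line is the median of the 58. The medians lie at 0.005, -0.05 and 0.04, and the points above 1.3 are Hspb1 and Dnajc12 in the outer panels, which rest on withdrawal rat 13, and Hspa1a in the middle one, which rests on ethanol rat 11.

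Withdrawal was compared with chronic ethanol to ask what differs between 24 h after ethanol and the time it was still present. This comparison had the most members with a low p. With edgeR 0 of 58 passed (0.0% of all genes) and limma-voom called 0, while DESeq2 called 2: Dnajc8, with a log2 change of 0.13 (DESeq2 adjusted p = 0.0425), and Hspa9, with 0.22 (DESeq2 adjusted p = 0.0474). DESeq2 called 294 of all 17637 genes here. At an unadjusted p under 0.05 in edgeR, 10 members were higher in withdrawal (17.2%) and 3 lower (5.17%), against 9.38% of all genes higher and 5.95% lower. The log2 change was positive in 35 members and negative in 23, with a median of 0.04, against 0.02 over all genes. The summed level of 5 oligodendrocyte genes had a median of 37425 CPM in withdrawal rats (16213 to 42358 CPM). In ethanol rats the median was 31108 CPM (28988 to 39916.5 CPM), and in control rats 36134 CPM. The part of oligodendrocyte RNA in these differences was not tested.

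Hspa9 again led, with 263, 227, 210.1, 222, 224 and 212 CPM in withdrawal rats 13 to 18, against 167, 178, 191, 193, 210.5 and 218 CPM in ethanol rats 7 to 12. Of the withdrawal rats 4 lay above every ethanol rat, and the log2 change was 0.23 ± 0.06 (edgeR adjusted p = 0.146). It was 0.18 without rat 13 and 0.15 without rats 5, 8, 13 and 17. Within the index of ethanol rats 9 to 12 and withdrawal rats 13 to 16, the log2 difference was 0.18 (exact permutation p = 0.0857, two-sided, where 4 against 4 rats allow 0.0286). The comparison shares its ethanol rats with the first, so the values of Hspa9 in the 2 comparisons are not independent. Hspa9 was also named for its low p here, so its within-index difference is no separate test, and the same holds for Dnajc8 below.

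Dnajc8, a nuclear DnaJ protein that associates with the spliceosome, had 98.7 to 109.9 CPM in withdrawal rats (median 106), against 89.6 to 101 CPM in ethanol rats (median 96.0) and 95.7 to 104 CPM in control rats. Of the withdrawal rats 5 of 6 lay above every ethanol rat, with a log2 change of 0.13 ± 0.04 (edgeR adjusted p = 0.172). It was 0.12 without rat 13, and 0.14 within the index (exact permutation p = 0.0571). Dnajc13 (RME-8, a DnaJ protein of endosomes) had 59.8 to 81.2 CPM in withdrawal rats (median 65.4), against 54.7 to 65.1 CPM in ethanol rats (median 57.6), a log2 change of 0.19 ± 0.07 (edgeR adjusted p = 0.246). That change was 0.13 without rat 13, the highest of all rats for Dnajc13. Dnajb14, a DnaJ protein of the endoplasmic reticulum membrane, had 7.90 to 18.6 CPM in withdrawal rats (median 13.7), against 7.01 to 11.1 CPM in ethanol rats (median 8.71) and 6.88 to 15.5 CPM in control rats. In both genes the groups overlapped, with 3 withdrawal rats above every ethanol rat for Dnajc13 and 4 for Dnajb14, whose log2 change was 0.58 ± 0.22 (edgeR adjusted p = 0.248).

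Dnajc25 had 4.54 to 6.32 CPM in withdrawal rats, against 4.17 to 4.98 CPM in ethanol rats, a log2 change of 0.24 ± 0.10 (edgeR adjusted p = 0.276). That change was 0.19 without rat 13, the highest of all rats for Dnajc25. Within the index all 4 withdrawal rats lay above all 4 ethanol rats, with a log2 difference of 0.29 (exact permutation p = 0.0286, the smallest possible; 0.25 adjusted over the 56 tests). The inducible HSP90 gene Hsp90aa1 also had a within-index p of 0.0286 (exact permutation; 0.25 adjusted), with a log2 difference of 0.28. Over all rats of the 2 groups the log2 difference was 0.17. Ethanol rat 8, outside this index, was at 19.6 CPM, above every withdrawal rat. Dnajb5, a cytosolic DnaJ gene, had 21.8 to 35.3 CPM in withdrawal rats (median 30.1), against 30.4 to 43.6 CPM in ethanol rats (median 34.3) and 32.8 to 34.4 CPM in control rats. Of the members that lay lower it had the lowest p, with 3 withdrawal rats below every ethanol rat and a log2 change of -0.25 ± 0.10 (edgeR adjusted p = 0.265). Rat 13 was the lowest of all rats for Dnajb5. Without rat 13 its log2 change was -0.18, and Dnajc27 had a lower p than Dnajb5. Hspb1 had a log2 change of 1.65 ± 0.58 (edgeR adjusted p = 0.223), and 0.69 without rat 13. Dnajc12 had 1.32 ± 0.52, and 0.01 without rat 13, and Hspa4 had 0.30 ± 0.14, and 0.08 without rat 13. The remaining members under an unadjusted p of 0.05 were Hspa14, with a log2 change of 0.16 (0.10 without rat 13), Dnajc1 with 0.27 (0.18), Dnaja4 with -0.12 (-0.13) and Dnajc27 with -0.27 (-0.17). Hspa14 and Dnajc1 were higher in rat 13 than in any other rat, and Dnajc27 was lower. Without rat 13, 5 members were higher and 3 lower (8.62 and 5.17%), against 7.14 and 6.81% of all genes, and without ethanol rat 12 the members lower numbered 1.

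A test of any difference among the 3 groups called 0 of 58 members with edgeR (0.0% of all genes). At an unadjusted p under 0.05 it took 9 members (15.5%), against 11.5% of all genes. By role, at an unadjusted p under 0.05, of the 25 DNAJC genes tested, 4 were higher and 3 lower in withdrawal against control, 5 higher and 1 lower in withdrawal against chronic ethanol, and 0 either way in chronic ethanol against control. Over all genes the shares higher and lower were 6.24 and 3.58%, 9.38 and 5.95%, and 3.1 and 2.74% in these comparisons. The DNAJC counts against control became 0 higher and 1 lower without rat 13, with 0 lower without control rat 5 and 2 higher without withdrawal rat 15 or control rat 6. Against chronic ethanol 3 were higher without rat 13, without withdrawal rat 15 or without ethanol rat 8. Of the 9 HSP70 genes tested, 2 were lower in chronic ethanol against control and 2 higher in withdrawal against chronic ethanol (2.74 and 9.38% of all genes), and with single rats left out these counts ran from 1 to 3 and from 1 to 2. All 3 HSP110 genes had a negative log2 change in chronic ethanol against control, with a median of -0.16. Of all 17637 genes tested, 9040 were negative there. Hsph1 was at -0.02, and at 0.02 without control rat 4 or without ethanol rat 8. Hspa4l was at -0.20, and at -0.12 without control rat 5.

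The other members named for their role or level overlapped between the groups. Hsph1, the inducible HSP110 gene, had 266 to 372 CPM in withdrawal rats (median 292), 233 to 320.3 CPM in chronic ethanol rats (median 276) and 240.5 to 322 CPM in control rats (median 283). Dnajb1, the DnaJ gene most used as a sign of heat shock, had 52.8 to 69.5 CPM in withdrawal rats (median 57.7), 44.6 to 64.4 CPM in chronic ethanol rats (median 54.9) and 54.0 to 69.5 CPM in control rats (median 54.7). In both genes the 3 ranges overlap, and no log2 change was larger than 0.13. Hsp90aa1 had 15.3 to 18.0 CPM in withdrawal rats, 10.8 to 19.6 CPM in chronic ethanol rats and 11.3 to 21.5 CPM in control rats. Dnajc5, the cysteine string protein of synaptic vesicles, had 317 to 398 CPM in withdrawal rats, 342 to 424 CPM in chronic ethanol rats and 351 to 437 CPM in control rats. Dnaja2 had 161 to 176 CPM in withdrawal rats, 161 to 171 CPM in chronic ethanol rats and 161 to 179 CPM in control rats. Hsp90aa1, Dnajc5 and Dnaja2 likewise overlapped across the groups, with log2 changes between -0.11 and 0.15. Hspe1 had 38.5 to 48.6 CPM in withdrawal rats. Hspb6, named for its spread, had 16.9 to 60.9 CPM in withdrawal rats, 16.0 to 27.1 CPM in chronic ethanol rats and 16.1 to 24.5 CPM in control rats, with rat 13 the highest.

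The members at an extreme in rat 13 cut across roles. Of the 58 tested, 20 were higher in rat 13 than in each of the other 17 rats, 14 were lower and 24 lay within. The share of all genes at an extreme in rat 13 was not counted, so these counts describe the library and show nothing particular to the members. Besides Hspb1 and Dnajc12, the higher ones included Hspa4, at 743 CPM beside 315 to 413 CPM in the others, and Hspb6, a small heat shock gene of muscle, at 60.9 CPM beside 16.0 to 27.1 CPM. Hspa8 was at 1807 CPM beside 1304 to 1628 CPM, and Hsph1 at 372 CPM beside 233 to 322 CPM. The lower ones included Dnajc27, at 113 CPM beside 175 to 243 CPM, Dnajc6, at 199 CPM beside 251 to 420.0 CPM, and Hspa12a, at 194 CPM beside 218 to 334 CPM. No other rat was at an extreme so often: ethanol rat 8 was lowest for 11 members and ethanol rat 9 for 9, and control rat 5 was highest for 9.

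**Figure D4:**
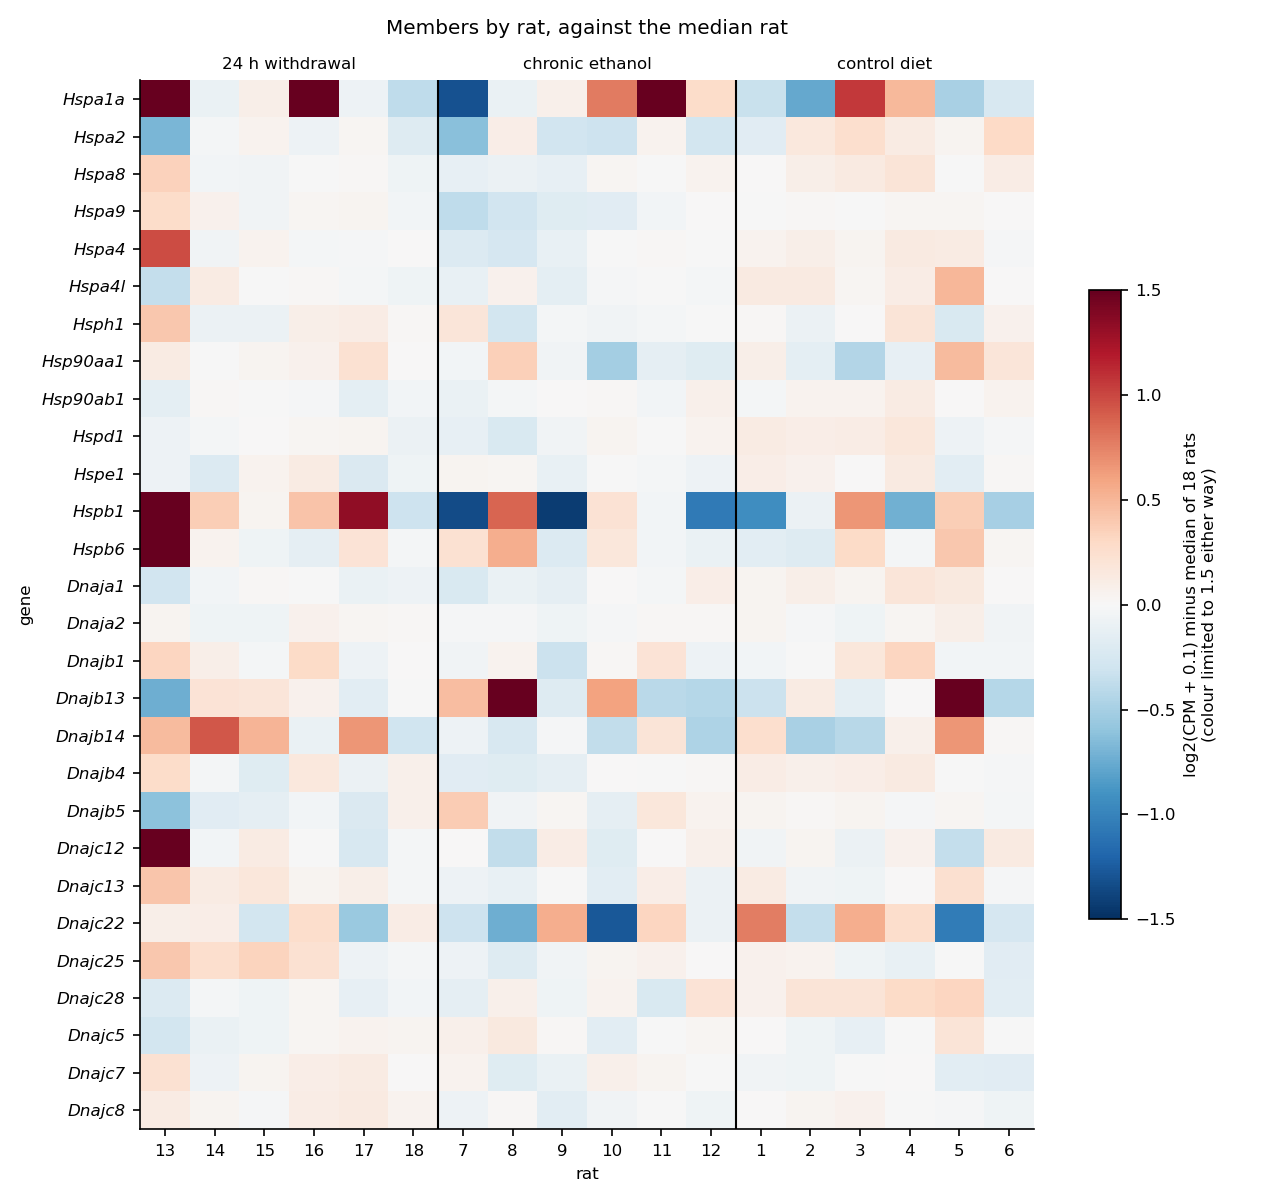
Each of 28 named members (rows, by role) in each of 18 rats (columns, withdrawal, chronic ethanol and control from left to right), as log2(CPM + 0.1) minus the median of the 18 rats, with colour limited to 1.5 either way. Withdrawal rat 13 is the most coloured column, with Hspb1, Hspb6, Dnajc12 and Hspa4 high, and Dnajb13 is highest in ethanol rat 8 and control rat 5.

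Over the 18 rats, the SD of log2 CPM had a median of 0.14 among the 55 members with a mean of at least 1 CPM, against 0.22 among 15029 genes at that level. It was lowest for Dnajc9, a histone chaperone of this family, at 0.05 on the log2 scale, and highest for Hspb1. Dnajb13, a part of the radial spokes of motile cilia, was the member that marked 2 other rats, at 3.55 CPM in ethanol rat 8 and 2.71 CPM in control rat 5, and 0.432 to 1.24 CPM in the other 16. These 2 rats also had 25.1 and 36.5 CPM of 4 ependymal genes, against 7.00 to 26.1 CPM in the others. For the 6 members with the widest spread (Hspb1, Dnajc12, Dnajb13, Dnajc22, Hspb6 and Dnajb14), levels were set against 14 marker lists over the 18 rats, 84 pairs in all. Pearson's r had an adjusted permutation p under 0.05 in 6 pairs and Spearman's rho in 0. With the 2 rats farthest from the median of the list left out, 0 of the 6 held. With the 2 farthest rats of each list left out, 1 of the 84 pairs had an adjusted permutation p under 0.05, Dnajb13 with the markers of other regions, in which rats 5, 8 and 13 stand apart. Over 18 rats r was 0.56 (adjusted permutation p = 0.121) and rho 0.50 (adjusted p = 0.267), and r was 0.84 without rats 5 and 13 (adjusted p = 0.0487). Ethanol rat 8 was still in that set, with 449 CPM of these markers and 3.55 CPM of Dnajb13, the highest values left in it. The relation without rat 8 as well was not computed. For Dnajb13 and the astrocyte list r was 0.64 (adjusted permutation p = 0.0483) and rho 0.64 (adjusted p = 0.184), and r was 0.58 without rats 10 and 13 (adjusted p = 0.172). For Dnajb13 and the ependymal list r was 0.68 (permutation p = 0.00128, adjusted 0.0358) and rho 0.65 (adjusted p = 0.184), and r was 0.49 without rats 5 and 13 (adjusted p = 0.336). For Hspb1 and the choroid plexus list (4 genes, 330.0 CPM in rat 13 and at most 20.6 CPM in the others) r was 0.78 (adjusted permutation p = 0.0386) and rho 0.47 (adjusted p = 0.307), and r was 0.41 without rats 3 and 13 (adjusted p = 0.445). The remaining pairs of the 6 were of Hspb6 and Dnajc12. Hspb6 had r of 0.73 with the markers of other regions (adjusted permutation p = 0.0227), and 0.57 without rats 5 and 13 (adjusted p = 0.174). With the GABA neuron list its r was -0.68 (adjusted permutation p = 0.0483), and -0.79 without rats 5 and 8 (adjusted p = 0.123). Dnajc12 had r of -0.57 with the astrocyte list (adjusted permutation p = 0.0358), and -0.48 without rats 10 and 13 (adjusted p = 0.343). The part of these cell types and regions in the levels of these members was not tested.

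Other genes of the pathway were counted from whole lists, which were set with earlier results of these data known, and 0 passed the edgeR test in any comparison. Of 13 subunits of the cytosolic chaperonin and prefoldin, which fold actin and tubulin, 2 were lower and 1 higher at an unadjusted p under 0.05 in chronic ethanol against control, and 6 were higher and 0 lower in withdrawal against chronic ethanol. Of all genes, 2.74% were lower and 3.1% higher in chronic ethanol against control, and 9.38% higher and 5.95% lower in withdrawal against chronic ethanol. Rat 13 enters the comparison of chronic ethanol with control only through the filter, the scaling and the spread that all groups share. Without rat 13, 6 subunits were lower in chronic ethanol against control, against 5.32% of all genes. Cct8 had 196 to 211 CPM in ethanol rats, against 216 to 241 CPM in control rats, so that 6 of 6 ethanol rats lay below every control rat (log2 change -0.14 ± 0.04, edgeR adjusted p = 0.508). Tcp1, another subunit, had 105 to 124 CPM in ethanol rats, against 121 to 124 CPM in control rats (log2 change -0.10 ± 0.04). In withdrawal against chronic ethanol the 6 were Tcp1, Cct2, Cct3, Cct4, Cct6a and Cct8, with log2 changes of 0.09 to 0.20. In rat 13 Cct2, Cct3, Cct4 and Cct6a were higher than in any other rat, as with Cct3 at 219 CPM beside 137 to 161 CPM. Without rat 13 their log2 changes were 0.09 for Cct2 (0.14 with it), 0.10 for Cct3 (0.20), 0.10 for Cct4 (0.17) and 0.11 for Cct6a (0.19), and 5 of the 6 subunits, all but Cct8, had an unadjusted p under 0.05.

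Of 27 co-chaperones tested, 4 were lower and 0 higher in chronic ethanol against control: Stip1 (HOP, which links HSP70 to HSP90), St13 (HIP), Ptges3 (p23) and Cacybp, with log2 changes of -0.11, -0.11, -0.11 and -0.12. Of all genes 2.74% were lower and 3.1% higher. The count of 4 was 0 without control rat 4, 1 without ethanol rat 7 and 2 without ethanol rat 8, control rat 2 or control rat 3. In withdrawal against chronic ethanol 3 were higher and 1 lower (9.38 and 5.95% of all genes), and in withdrawal against control 1 was higher and 1 lower (6.24 and 3.58% of all genes). With single rats left out these counts ran from 1 to 4 and from 0 to 2 against chronic ethanol, and from 0 to 1 and from 0 to 2 against control. Of the 4 heat shock factor genes, Hsf1 was the 1 under an unadjusted p of 0.05, in withdrawal against control, with a log2 change of 0.55. It was at 114 CPM in rat 13, against 30.2 to 38.4 CPM in the other 17 rats, and the log2 change was 0.10 without that rat. Fkbp5, a co-chaperone of HSP90 for steroid receptors, was at 82.9 CPM in rat 13, against 22.5 to 48.7 CPM in the others, with a log2 change of 0.53 in withdrawal against control and 0.22 without it. Of 11 endoplasmic reticulum chaperones, which the choice of members does not take in, all had a negative log2 change in both comparisons with control, with medians of -0.06 in withdrawal and -0.06 in chronic ethanol. The log2 changes ran from -0.16 to -0.008 in withdrawal and from -0.18 to -0.002 in chronic ethanol. Of all 17637 genes tested, 8165 were negative in withdrawal and 9040 in chronic ethanol. Those comparisons share the control rats, and 1 gene in each had an unadjusted p under 0.05. These were Pdia6 with a log2 change of -0.12 in withdrawal and Pdia4 with -0.18 in chronic ethanol, where 3.58 and 2.74% of all genes were lower.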

How the data were processed

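Stranded mRNA libraries were read in pairs on an Illumina sequencer, per the labels' protocols. The deposited values are whole-number counts of fragments for each gene. Per the file headers the authors counted them with featureCounts 1.5.0, by strand, with no option set to count pairs that match several places. The submitters' processing notes list STAR 2.5.2a, limma, R 3.3.3 and the Rnor_6.0 build. Gene IDs were paired with RefSeq symbols for 29322 of 38445 genes. Gene coordinates are of Rnor_6.0, and promoters of GRCr8.

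Genes kept by filterByExpr (17637) were scaled with TMM factors. The test was edgeR 4.0.16 (quasi-likelihood, two-sided, in R 4.3.3) on all 18 libraries, with Benjamini-Hochberg adjustment over all genes at 0.05. An SE is the log2 change over the square root of the F statistic. Log2 CPM in within-index tests and spreads used a prior count of 2. The fits were tested on simulated data. No libraries were copies of each other (smallest chi-square per degree of freedom 12.4). Each library is a separate rat.

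Members described in full are the 6 with the lowest p in each comparison, the 6 with the widest spread, the 6 with the highest level per kb and 14 listed ones, 29 in all. Other members and pathway genes with an unadjusted p under 0.05, or at an extreme in rat 13, and Dnajc9 were named after their values were seen. Dnajc22, one of the 29, had 1.11 to 2.03 CPM in withdrawal rats, 0.636 to 2.49 CPM in chronic ethanol rats and 0.755 to 2.93 CPM in control rats. Members and lists were chosen with earlier results of these data known. Alternatives were RLE factors, library totals only, no filter, 1 CPM in 6 libraries, DESeq2 1.42.0, limma-voom (limma 3.58.1), only the groups compared, library index as a term, rats 5, 8, 13 and 17 left out, single rats left out, and an adjusted p of 0.10. The index comes from library names: rats 1 to 8 share an index, rats 9 to 16 another, and rats 17 and 18 another. No index holds both withdrawal and control rats.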

Additional observations from a re-analysis of the deposited data

Results flagged for a closer look

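In 12 of 87 combinations of a named member and a group, 1 rat lay farther from the other 5 of its group than Dixon's 95% critical value allows, where chance gives about 1 in 20 groups that were not chosen by their values. Of the 12, 5 fall among the 18 combinations of the 6 members named for the widest spread, and others were named for a low p, so that rate does not hold for these members. Withdrawal rat 13 accounts for 7 of them. It had 342 CPM of Dnajc12, beside 30.1 to 38.6 CPM in the other withdrawal rats, and 85.8 CPM of Hspb1, beside 7.38 to 23.3 CPM. It had 743 CPM of Hspa4 (362 to 391 CPM in the others), 60.9 CPM of Hspb6 (16.9 to 21.3 CPM), 1807 CPM of Hspa8 (1365 to 1440.2 CPM), 263 CPM of Hspa9 (210.1 to 227 CPM) and 372 CPM of Hsph1 (266 to 306 CPM). The pineal genes of this library are given in the report, and their part in these values was not tested.

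Ethanol rat 8 had 3.55 CPM of Dnajb13, beside 0.555 to 1.24 CPM in the other ethanol rats, and control rat 5 had 2.71 CPM, beside 0.556 to 0.863 CPM in the other control rats. Control rat 5 also had 485 CPM of Hspa4l, beside 344 to 377 CPM. Ethanol rat 11 had 4.84 CPM of Hspa1a, beside 0.104 to 0.770 CPM in the other ethanol rats. Ethanol rat 8 had 0.0248 CPM of Hspa1b, beside 0 in the others, which is a single read pair.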

How the results depend on the processing

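The count of members called was 0 in each alternative run, in the 3 comparisons and, where it was run, in the test among the 3 groups (the fit of only the groups compared has none), except that DESeq2 called 2 in withdrawal against chronic ethanol. The cause was not tested. Of 18 log2 changes compared (the 6 members with the lowest p in each comparison), 1 turned its sign: that of Dnajc12 in withdrawal against control, which was -0.015 without rats 5, 8, 13 and 17 and ran from -0.00085 to 1.47 with single rats left out, the lowest without withdrawal rat 13. Over all 84 combinations of a named member tested and a comparison, the sign turned in 26 when some single rat was left out, and in 12 of these the log2 change with all rats was at least 0.1 in size. In chronic ethanol against control these were Hspa1a, at -0.02 without ethanol rat 11, Dnajb13, at -0.34 without ethanol rat 8 and 0.30 with it, Hspb1, at 0.09 without control rat 3 and -0.12 with it, and Hsp90aa1, at 0.002 without control rat 5 and -0.11 with it. In withdrawal against control they were Dnajc12, Hspa4, at -0.08 without rat 13 and 0.14 with it, Hspb6, at -0.06 without rat 13 and 0.40 with it, Dnajb13, at 0.11 without control rat 5 and -0.46 with it, and Dnajc22, at 0.05 without control rat 1 and -0.13 with it. In withdrawal against chronic ethanol they were Hspa1a, at 0.77 without ethanol rat 11 and -0.66 with it, Hspb6, at -0.11 without rat 13 and 0.35 with it, and Dnajc22, at -0.04 without ethanol rat 10 and 0.11 with it. The median log2 change of the members ran from -0.07 to -0.04 in chronic ethanol against control, from 0.01 to 0.05 in withdrawal against chronic ethanol, and from -0.03 to 0.03 in withdrawal against control. Over all genes, calls in withdrawal against chronic ethanol numbered 294 with DESeq2, 22 without rat 13 and 24 without rat 18, against 0 in edgeR with all rats. No paired analysis was possible because animal numbers are not shared between groups. Counts do not separate Hspa1a from Hspa1b, and a difference in the 8 members too low to test was not detectable at this depth.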
